A study of Homo sapiens with 12 samples.

Results

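A set of 40 genes of mitosis and of the G2/M transition were followed across 12 RNA sequencing libraries of HK2 cells, an immortalised line from human proximal tubule. The 40 genes were named by symbol as a fixed module. They were 40 of the 62703 gene identifiers in the expression table, and all 40 were among the 14639 genes that reached a TPM of at least 1 in at least 3 libraries and were tested. TPM, a measure of transcript abundance, is a read count divided by transcript length and scaled to the same total in each library, so levels of different genes can be set side by side. The experiment asked what high glucose and a changed amount of FGF9, a secreted growth factor, do to tubular epithelial cells.

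Each of the 4 groups held 3 libraries. The NG cells were kept in 5.5 mM glucose and received a control vector. The HG cells were kept in 50 mM glucose, and a vector was not described for them. As described, HG therefore differs from NG in the vector as well as in glucose. The si-FGF9 cells received an siRNA against FGF9 in 5.5 mM glucose, and a non-targeting siRNA was not described for them. The HG + OE-FGF9 cells were kept in 50 mM glucose and received a viral vector carrying FGF9. All groups came from the same cell line, a transfection by lipid reagent is described for the vectors and the siRNA, and nothing states that the 3 libraries of a group were separate cultures, so p-values measure the spread between these libraries. In these bulk libraries, fewer dividing cells and less RNA per dividing cell cannot be told apart.

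FGF9 itself was listed at 0 TPM in 9 libraries, those of every group other than HG + OE-FGF9. In the latter it stood at 3.34, 4.03 and 3.82 TPM, as their label states, while the effect of the siRNA on its target could not be measured in these libraries. The study also measured FGF9 by RT-qPCR in these groups. There its mean was lower in si-FGF9 than in NG, a difference that missed the study's significance level. The 4 keratins of the epithelial marker list were at or above 1 TPM in every library. Of the proximal tubule markers PAX8 and GGT1 were detected in every library, whereas LRP2, CUBN, SLC34A1 and ANPEP, which mark the differentiated tubule, were under 1 TPM throughout. Of 8 markers of other cell types, PTPRC, PECAM1, VWF, NPHS1 and PDGFRB (leukocytes, endothelium, podocytes and pericytes) were also under 1 TPM throughout, whereas the lysosomal protein and macrophage marker CD68 (108 to 159 TPM) and the mesenchymal markers ACTA2 (1.56 to 5.27 TPM) and COL1A1 (1.54 to 7.81 TPM) were above 1 TPM in every library.

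In a dividing cell, cyclin A and B bound to CDK1 drive entry into mitosis, the centromere assembles a kinetochore that holds spindle microtubules, and a checkpoint of BUB and MAD proteins delays the separation of chromatids until every kinetochore is attached. CDC20 then activates the anaphase promoting complex, a ubiquitin ligase that marks securin and cyclin B for destruction, and the central spindle and an actin ring divide the cytoplasm. The mRNAs of these proteins rise together in G2 and M under FOXM1 and the MYB-MuvB complex and are held down in resting cells by the DREAM complex, which reads a short promoter element named the cell cycle homology region. Because the mRNAs rise together, they are widely used as a measure of how many cells in a culture divide.

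The promoters of the genes carried the letters of this shared control. RefSeq promoter windows (GRCh38.p14, 250 bases before to 50 after each annotated start) were at hand for 33 of the 40 genes, as 43 windows. TPX2, BIRC5, UBE2C, BUB3, AURKA, FOXM1 and TTK had no entry. The CCAAT box (CCAAT on either strand) occurred in 32 of the 43 windows (74.4%), against 34.6% of all 35116 windows. The cell cycle homology region (TTTGAA or TTCGAA on either strand) occurred in 29 (67.4%), against 16.4% of all windows, and both motifs in 24 (55.8%), against 6.38%. An E2F-like site (TTTCGCGC, TTTGGCGC, TTCCCGCC or TTCGCGCC on either strand) occurred in 5 windows (11.6%), against 4.9%. Stretches of 110 bases before the start are shown for genes picked because they hold both motifs there, with the matched letters in capitals. Of these genes, CCNB2, PLK1, MKI67, HMMR and PRC1 were lower after si-FGF9, whereas CDC20, CKS1B and CKS2 were not called. That both kinds carried the same pair of motifs follows from this choice and is not a result. In MKI67 one homology region overlaps a reverse CCAAT box, in HMMR a forward and a reverse CCAAT box overlap and 2 homology regions adjoin, and in CKS2 the homology region stands on the reverse strand.
CCNB2 (chr15:59105036-59105145, plus strand): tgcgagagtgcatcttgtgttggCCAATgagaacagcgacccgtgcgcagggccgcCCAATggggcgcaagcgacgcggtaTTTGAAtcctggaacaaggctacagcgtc
PLK1 (chr16:23678779-23678888, plus strand): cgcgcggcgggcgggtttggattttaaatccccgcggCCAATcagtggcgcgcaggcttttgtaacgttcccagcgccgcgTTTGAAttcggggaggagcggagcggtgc
MKI67 (chr10:128126424-128126533, minus strand): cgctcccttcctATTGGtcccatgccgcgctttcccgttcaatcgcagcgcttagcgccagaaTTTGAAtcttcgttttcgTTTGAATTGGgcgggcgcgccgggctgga
HMMR (chr5:163460522-163460631, plus strand): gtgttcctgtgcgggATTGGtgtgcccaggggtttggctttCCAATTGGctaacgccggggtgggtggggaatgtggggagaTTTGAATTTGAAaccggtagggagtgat
PRC1 (chr15:90994536-90994645, minus strand): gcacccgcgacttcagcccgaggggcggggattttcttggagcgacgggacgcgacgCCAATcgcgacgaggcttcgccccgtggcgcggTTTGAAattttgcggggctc
CDC20 (chr1:43358871-43358980, plus strand): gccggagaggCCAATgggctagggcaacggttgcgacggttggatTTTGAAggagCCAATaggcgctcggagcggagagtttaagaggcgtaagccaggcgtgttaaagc
CKS1B (chr1:154974571-154974680, plus strand): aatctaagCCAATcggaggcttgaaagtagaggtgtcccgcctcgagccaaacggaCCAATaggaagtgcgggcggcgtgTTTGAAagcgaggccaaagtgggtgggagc
CKS2 (chr9:89311085-89311194, plus strand): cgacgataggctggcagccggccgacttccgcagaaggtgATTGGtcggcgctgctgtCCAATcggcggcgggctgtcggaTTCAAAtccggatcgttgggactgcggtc

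Matches to the homology region lay close to the start of transcription. Of 41 matches in the 43 windows, 29 (70.7%) began between 75 bases before and 25 bases after the start, with a median position of -28. The 69 CCAAT matches lay further upstream, with a median position of -87, and 41 of them began between 110 and 40 bases before the start. Among genes with a window, the homology region was found in 19 of the 23 that were lower after si-FGF9 and in 7 of the 10 that were not, and the CCAAT box in 18 of 23 and 9 of 10. These matches describe letters in a window and were not tested as binding sites. Their positions were not measured over all windows, so they cannot be called particular to these genes.

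**Figure D1:**
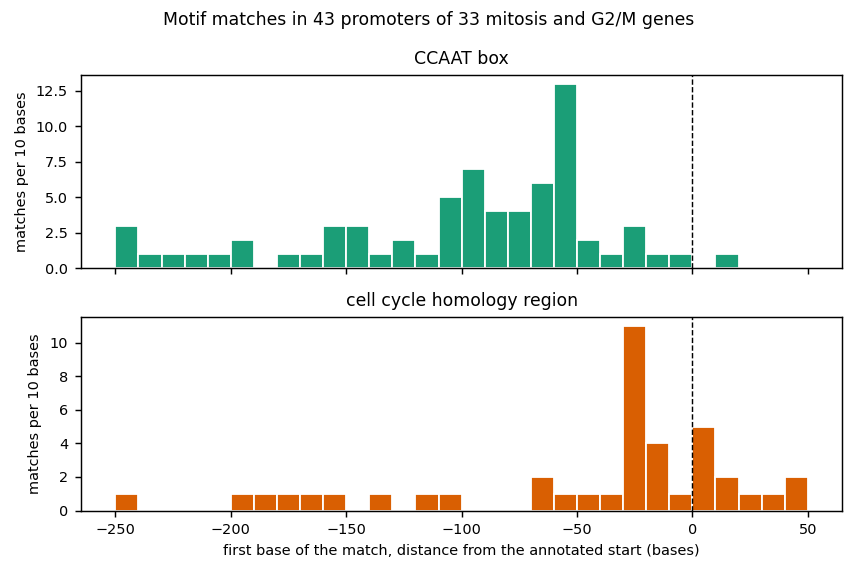
Positions of motif matches in 43 promoter windows of 33 mitosis and G2/M genes, as the number of matches in steps of 10 bases, with the annotated start at 0 (dashed line). CCAAT boxes gather upstream (median -87) and cell cycle homology regions near the start (median -28). Positions over all windows were not measured.

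Before the results, 3 features of the libraries need stating. The deposited values moved with the base composition of transcripts: over all tested genes the rank correlation of GC content with the deviation of a library from the gene means was -0.65 to -0.55 in the NG libraries and 0.23 to 0.55 in the si-FGF9 and HG + OE-FGF9 libraries, and in the HG group it was 0.12, 0.57 and -0.42. HG replicate 3 and HG + OE-FGF9 replicate 3 stood apart from their groups for these genes. HG + OE-FGF9 replicate 3 held the highest value of its group for 40 of the 40 genes, against 67.2% of all tested genes, and HG replicate 3 for 35, against 48.7%. Mitochondrial transcripts made up 4.94% to 8.597% of TPM in the si-FGF9 libraries and 11.3% to 15.6% elsewhere. The number of reads behind a library is unknown, because TPM keeps no depth.

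A gene was counted as changed when its log2 fold change was at least 1 in either direction with an unadjusted p under 0.01, the rule of the study, in limma fitted to log2(TPM + 1) of all 12 libraries. For a single gene, exact permutation (two-sided) of 3 libraries and 3 others cannot go below p = 0.1. Fold changes on this scale understate the change of genes near or under 1 TPM. The median of all tested genes was itself below 0 against NG, at -0.39 (HG), -0.79 (after si-FGF9) and -0.51 (HG + OE-FGF9). For this reason the counts of the 40 genes under the rule of the study are set beside the share of all tested genes with the same call. Counts at looser thresholds have no such share beside them and are not read as an excess. The counts were repeated after a smooth trend on GC content had been taken out of every library, which also removes the library's overall shift.

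Genes of mitosis were lower than in NG in each of the 3 other groups, most often after si-FGF9. In HG 13 of the 40 fell and none rose, where 22.7% of all tested genes fell and 1.65% rose. After si-FGF9 28 fell and none rose, where 42.2% of all genes fell and 5.36% rose. In HG + OE-FGF9 23 fell and none rose, where 32.7% of all genes fell and 7.01% rose. At an adjusted p under 0.05 with no minimum fold 0, 1 (BIRC5) and 4 (AURKB, BIRC5, CDC20 and CKS1B) of the 40 were higher. The median log2 fold changes of the 40 genes were -0.73, -1.56 and -1.17. Scaling each library by the median of ratios, which sets the median of all genes to about 0, left medians of -0.22, -0.54 and -0.53. The counts became 5 lower and 0 higher in HG (all genes 8.47% and 7.26%). After si-FGF9 14 were lower and 7 higher (17.8% and 18.9%). In HG + OE-FGF9 16 were lower and 4 higher (17.6% and 16.9%). AURKB, BIRC5, CDC20 and CKS1B were higher in both of the last groups, and CDC25B, CKS2 and PTTG1 after si-FGF9 alone.

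The GC content correction reduced the counts further. None of the 40 passed in HG against NG by limma, where 3.06% of all genes were lower and 3.78% higher, although 3 were lower and 5 higher at an adjusted p under 0.05 with no minimum fold, and 15 passed in either direction at an unadjusted p under 0.05. After si-FGF9 10 were lower and 3 higher, where 12% and 12.3% of all genes were, and at an adjusted p under 0.05 with no minimum fold 18 were lower and 8 higher. In HG + OE-FGF9 against NG 12 were lower and 2 higher, where 11.8% and 11.3% were. At that adjusted p 19 were lower and 8 higher. The shares of all genes in this paragraph belong to the fold and p rule and not to the looser thresholds. CENPE, CENPF, ECT2, HMMR, KIF20A, KIF23, MKI67 and TTK were lower in both of these groups with the correction, and CKS1B and CKS2 were higher in both. When transcript length was corrected too, CENPE (-0.87 and -0.90) and MKI67 (-0.98 and -0.99) came to lie under the fold threshold in both groups. So did CKS2 (0.71 and 0.10), and CKS1B after si-FGF9 (0.79) but not in HG + OE-FGF9 (1.14). With length BIRC5 was newly called higher after si-FGF9. In HG + OE-FGF9 NUSAP1 was newly called lower and ANLN no longer passed.

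The same 13 genes fell in all 3 groups against NG: ANLN, BUB1B, CCNA2, CENPE, CENPF, ECT2, HMMR, KIF11, KIF14, KIF23, MKI67, NUSAP1 and TTK. A further 9 fell after si-FGF9 and in HG + OE-FGF9 and did not pass in HG, 6 fell after si-FGF9 alone, and TOP2A fell in HG + OE-FGF9 alone. The remaining 11 passed in none of the 3, among them the anaphase promoting complex genes CDC20, UBE2C and PTTG1, the passenger complex genes AURKB and BIRC5, and the CDK1 partners CKS1B and CKS2. All 3 comparisons share the NG libraries, and passing in one and not in another was not tested as a difference.

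**Figure D2:**
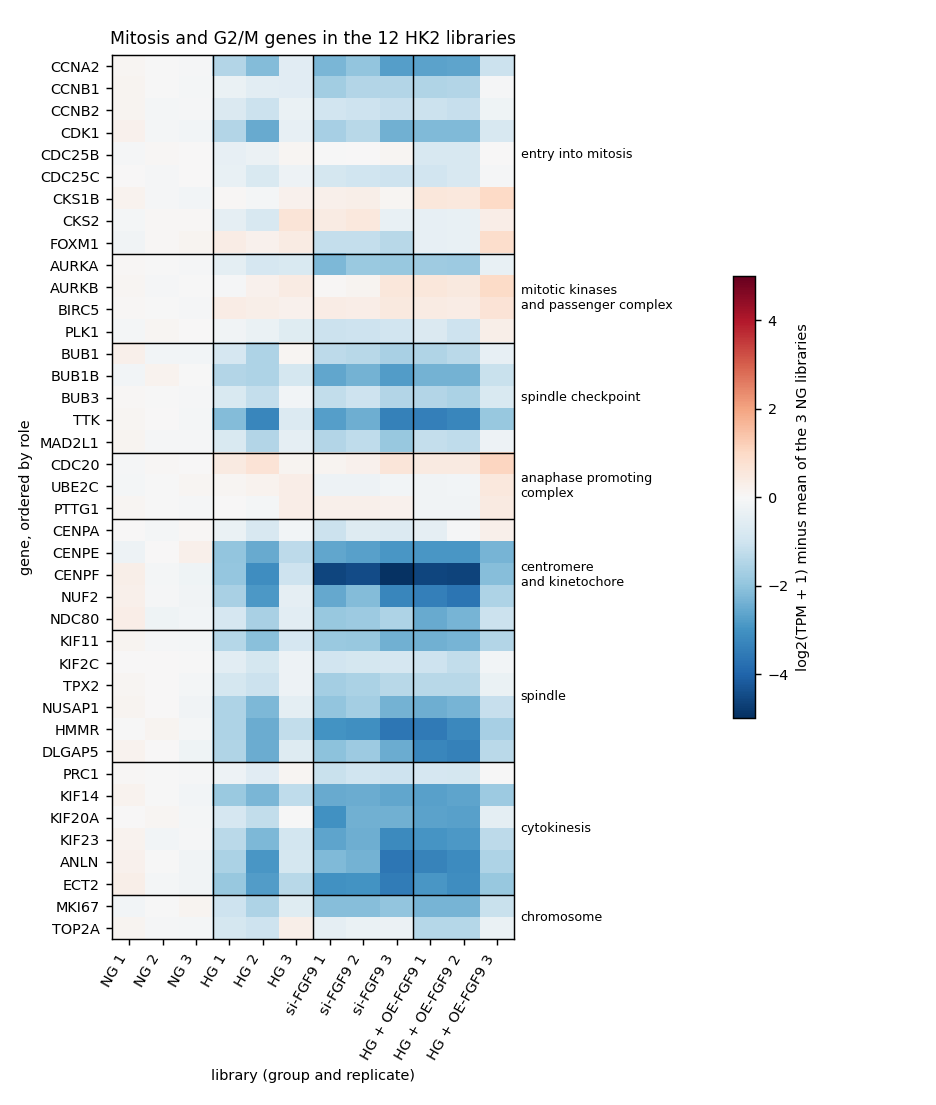
Log2(TPM + 1) of each of the 40 genes (rows, by role) in each of the 12 libraries (columns), minus the mean of the 3 NG libraries, with blue for lower and red for higher. Blue deepens from HG to si-FGF9 and to HG + OE-FGF9 replicates 1 and 2 over the kinetochore, spindle and cytokinesis rows, whereas HG replicate 3 and HG + OE-FGF9 replicate 3 are paler than their groups.

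Among the genes of entry into mitosis, 1 of 9 fell in HG (11.1%, against 22.7% of all tested genes), 5 after si-FGF9 (55.6%, against 42.2%) and 3 in HG + OE-FGF9 (33.3%, against 32.7%), each against NG. The counts of the other roles are small and are read against the same 3 shares. With the GC content correction no entry gene was lower after si-FGF9 and 1 was in HG + OE-FGF9. CDK1, the kinase that starts mitosis, was at 152, 125 and 120 TPM in NG, at 47.7, 21.9 and 99.4 in HG, at 40.4, 50.1 and 24.2 after si-FGF9, with HG + OE-FGF9 at 28.0, 27.8 and 75.4. Every library of the other groups lay below the lowest NG library, with HG replicate 3 nearest to it. CDK1 fell after si-FGF9 (log2 fold change -1.82 ± 0.50 SE, limma adjusted p = 0.0059) and in HG + OE-FGF9 (-1.73 ± 0.50, adjusted p = 0.0089), but with the GC content correction these values were -0.16 and -0.27.

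Cyclin B1, encoded by CCNB1, is the partner that CDK1 needs for mitosis. Its mRNA was at 126, 112 and 105 TPM in NG, 90.9, 79.5 and 76.0 in HG, 33.2, 40.4 and 40.7 after si-FGF9, while the HG + OE-FGF9 libraries held 39.7, 40.6 and 111. The si-FGF9 libraries lay below every NG and HG library, whereas HG + OE-FGF9 replicate 3 reached the NG range. The fall after si-FGF9 was -1.56 ± 0.31 (limma adjusted p = 0.00067) against NG and -1.09 ± 0.31 (adjusted p = 0.021) against HG, and these became -0.31 and -0.63 with the GC content correction. Cyclin A2 (CCNA2), which acts in S phase and G2, fell in HG (-1.41) and after si-FGF9 (-2.34), while cyclin B2 (CCNB2) fell only after si-FGF9 among the comparisons with NG, at -1.04, a value that turned to 0.07 with the GC content correction.

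FOXM1, the transcription factor that activates many of the other genes here, followed another course. Its TPM was 23.9, 27.9 and 29.3 in NG, 35.3, 31.3 and 36.5 in HG, 11.3, 11.3 and 9.75 after si-FGF9, with HG + OE-FGF9 at 19.8, 20.9 and 50.7. All HG libraries were above all NG libraries and all si-FGF9 libraries below them, whereas HG + OE-FGF9 replicates 1 and 2 lay between si-FGF9 and NG and replicate 3 above every HG library. After si-FGF9 FOXM1 fell against NG (-1.25 ± 0.28, limma adjusted p = 0.0018) and against HG (-1.58 ± 0.28, adjusted p = 0.0034). The GC content correction left it at -0.92 against NG, which missed the fold threshold, and at -1.32 against HG, which passed. The HG against NG difference of 0.34 ± 0.28 did not pass.

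Of the other entry genes, the small CDK1-binding proteins CKS1B and CKS2 and the phosphatase CDC25B, which removes the inhibitory phosphates from CDK1, passed in no comparison as deposited. CKS1B was at 300, 255 and 238 TPM in NG, 275, 247 and 305 in HG, 314, 323 and 284 after si-FGF9, while the HG + OE-FGF9 libraries held 385, 382 and 522. Its HG + OE-FGF9 libraries were above all other libraries, at 0.63 ± 0.15 against HG (limma adjusted p = 0.024), which missed the fold threshold. With the GC content correction CKS1B was higher than NG by 1.42 after si-FGF9 and by 1.61 in HG + OE-FGF9, and CKS2 by 1.65 and 1.05. CDC25C, the relative of CDC25B, was at -0.98 ± 0.23 after si-FGF9 (adjusted p = 0.0022), just outside the fold threshold.

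The mitotic kinases divided by gene. Aurora A (AURKA), which matures the centrosomes, was at 74.0, 70.5 and 67.8 TPM in NG, 50.2, 39.05 and 41.1 in HG, 14.0, 19.0 and 18.3 after si-FGF9, with HG + OE-FGF9 at 19.95, 19.2 and 54.4. All libraries of the other groups lay below NG, and the si-FGF9 libraries lay below every HG library. AURKA fell after si-FGF9 to 0.242 times the NG mean (limma adjusted p = 0.00013, log2 fold change -1.12 with the GC content correction, which also passed), and against HG (-1.30 ± 0.31, adjusted p = 0.011).

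Polo-like kinase 1 (PLK1), which acts with CDK1 from entry to exit, was at 24.4, 28.5 and 26.5 TPM in NG, 23.3, 20.9 and 17.2 in HG, 11.85, 12.4 and 13.03 after si-FGF9, while the HG + OE-FGF9 libraries held 15.6, 12.5 and 32.6. It fell after si-FGF9 (-1.03 ± 0.27, adjusted p = 0.0049), with -0.80 under the GC content correction, and HG + OE-FGF9 replicate 3 was its highest library. Survivin (BIRC5), a subunit of the chromosomal passenger complex, was at 55.0, 52.2 and 50.1 TPM in NG, 68.8, 64.0 and 60.2 in HG, 67.9, 65.8 and 73.0 after si-FGF9, with HG + OE-FGF9 at 69.9, 68.9 and 84.3. Every library of the other groups was above every NG library, yet as deposited the differences (0.29 in HG, 0.39 after si-FGF9 and 0.49 in HG + OE-FGF9) were under the fold threshold. Aurora B (AURKB), the kinase of the same complex, was likewise not called in any group as deposited, with differences from NG of 0.18, 0.26 and 0.67. Under the median of ratios scaling both were called higher after si-FGF9 and in HG + OE-FGF9. BIRC5 was also called higher after si-FGF9 when GC content and length were corrected.

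**Figure D3:**
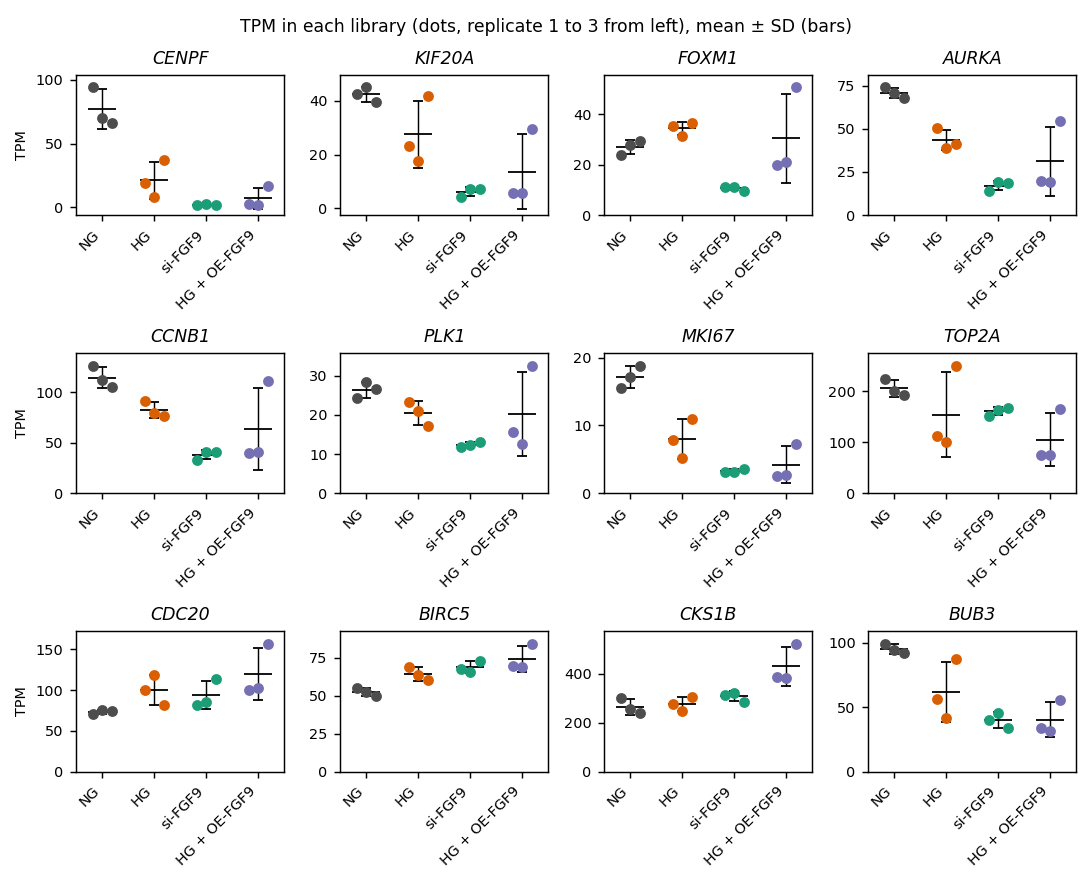
TPM of 12 genes in the 3 libraries of each group (dots, replicates 1 to 3 from left; long bars are means and capped bars ± SD, n = 3). CENPF, KIF20A, FOXM1 and AURKA have their lowest mean in si-FGF9, with little spread, HG + OE-FGF9 replicate 3 sits far above replicates 1 and 2 in most panels, and the means of CDC20, BIRC5 and CKS1B lie above that of NG in every other group.

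All 5 genes of the spindle checkpoint fell after si-FGF9, 2 of 5 fell in HG, and 3 of 5 in HG + OE-FGF9 against NG, and with the GC content correction the numbers were 2, 0 and 1. BUBR1 (BUB1B), which binds and restrains CDC20, was at 15.02, 18.7 and 16.2 TPM in NG, 5.35, 5.06 and 8.45 in HG, 1.91, 2.41 and 1.51 after si-FGF9, while the HG + OE-FGF9 libraries held 2.44, 2.42 and 7.23. The groups formed 3 steps without overlap from NG to HG to si-FGF9, and HG + OE-FGF9 replicate 3 lay among the HG libraries. BUB1B fell in HG (-1.30 ± 0.32, limma adjusted p = 0.006), after si-FGF9 (-2.59 ± 0.32, adjusted p = 2.6e-05), and was lower after si-FGF9 than in HG (-1.29 ± 0.32, adjusted p = 0.012). Its si-FGF9 value against NG stayed past the threshold with the GC content correction (-1.34).

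MPS1 (TTK), the kinase that recruits the checkpoint proteins, was at 34.4, 32.7 and 29.6 TPM in NG, 6.41, 2.47 and 19.5 in HG, 3.89, 5.17 and 2.18 after si-FGF9, with HG + OE-FGF9 at 2.07, 2.47 and 7.97. Its fall in HG was -2.04 ± 0.56 (limma adjusted p = 0.01), the lowest value of the 40 genes there on the log2(TPM + 1) scale, although by the ratio of mean TPM (0.293) CENPE (0.184), KIF14, ECT2, CENPF and HMMR fell further. It was at -2.86 ± 0.56 in both other groups against NG. BUB3, a structural partner of BUB1 and BUBR1, was at 99.3, 94.5 and 92.1 TPM in NG, 56.2, 41.4 and 87.3 in HG, 40.3, 45.7 and 33.5 after si-FGF9, while the HG + OE-FGF9 libraries held 33.8, 31.6 and 55.8. BUB3 fell after si-FGF9 (-1.25 ± 0.26, adjusted p = 0.0011) as deposited, and the value turned to 0.21 with the GC content correction. MAD2L1, whose product is the checkpoint inhibitor itself, behaved likewise, at -1.55 as deposited and 0.05 with the correction, and BUB1, the kinase that marks kinetochores for it, moved from -1.44 to -0.10 and to 0.05 when length was corrected too.

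The genes that act with the anaphase promoting complex passed in no comparison as deposited. CDC20, its mitotic activator, was at 71.1, 75.9 and 74.1 TPM in NG, 100, 119 and 81.5 in HG, 82.1, 86.0 and 114 after si-FGF9, with HG + OE-FGF9 at 100, 102 and 157. Every library of the other groups was above every NG library, with differences of 0.42 in HG, 0.33 after si-FGF9 and 0.66 in HG + OE-FGF9 that were under the fold threshold. Securin (PTTG1), the protein whose destruction frees separase, was at 520, 474 and 461 TPM in NG, 491, 452 and 608 in HG, 576, 581 and 569 after si-FGF9, while the HG + OE-FGF9 libraries held 427, 433 and 670. Its groups overlapped except for si-FGF9, which was above NG by 0.25 ± 0.17. UBE2C, the ubiquitin-conjugating enzyme of the complex, lay between 252 and 435 TPM in all libraries.

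At the centromere and kinetochore 2 of 5 genes fell in HG, 4 after si-FGF9 and 4 in HG + OE-FGF9 against NG (0, 2 and 3 with the GC content correction). CENPF, a large kinetochore and nuclear matrix protein made in G2, had the lowest log2 fold change of the 40 genes after si-FGF9 and in HG + OE-FGF9 on the log2(TPM + 1) scale. By the ratio of mean TPM to that of NG it was also lowest after si-FGF9, but CENPE (0.0459) and KIF14 (0.085) were below CENPF (0.0902) in HG + OE-FGF9. It was at 94.6, 70.2 and 66.1 TPM in NG, 19.1, 7.93 and 36.8 in HG, 2.16, 2.46 and 1.49 after si-FGF9, with HG + OE-FGF9 at 2.23, 2.09 and 16.5. Mean TPM after si-FGF9 was 0.0265 times that of NG, and HG + OE-FGF9 replicates 1 and 2 lay in the si-FGF9 range while replicate 3 lay among the HG libraries.

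CENPF fell in HG (-2.02 ± 0.62, limma adjusted p = 0.018), after si-FGF9 (-4.68 ± 0.62, adjusted p = 4e-05) and in HG + OE-FGF9 against NG (-3.78 ± 0.62, adjusted p = 0.00026). The last 2 remained past the threshold with the GC content correction, at -3.17 and -2.52. CENPE, the kinesin that carries chromosomes to the spindle equator, was at 6.33, 7.82 and 9.58 TPM in NG, 1.25, 0.52 and 2.60 in HG, 0.44, 0.33 and 0.16 after si-FGF9, while the HG + OE-FGF9 libraries held 0.18, 0.17 and 0.74. No CENPE library outside NG came near the NG range, and most were under 1 TPM. It fell in HG (-1.93 ± 0.29, adjusted p = 0.00087) and after si-FGF9 (-2.76 ± 0.29, adjusted p = 1.3e-05), which the low TPM understates.

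NUF2 and NDC80 encode partners in the complex that grips microtubules. NUF2 fell in HG + OE-FGF9 (-2.87 ± 0.61, limma adjusted p = 0.0014) and after si-FGF9 (-2.67 ± 0.61, adjusted p = 0.0018), where the value was -1.04 with the GC content correction and no longer passed. Its TPM was 72.6, 57.5 and 53.1 in NG, 19.2, 7.49 and 44.4 in HG, 9.37, 12.6 and 5.46 after si-FGF9, with HG + OE-FGF9 at 4.70, 3.92 and 20.3, all below NG. NDC80 fell in the same comparisons, at -1.75 after si-FGF9 and -1.98 in HG + OE-FGF9, and was at -0.19 and -0.65 with the GC content correction. CENPA, the histone that marks the centromere itself, was at 20.5, 18.9 and 20.6 TPM in NG, 15.8, 11.2 and 18.2 in HG, 8.89, 12.5 and 12.1 after si-FGF9, while the HG + OE-FGF9 libraries held 14.3, 18.9 and 23.8. Its si-FGF9 libraries lay below all NG libraries, at -0.80 ± 0.22 (adjusted p = 0.0062), under the fold threshold, and -0.02 with the GC content correction.

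Of the 6 spindle genes, 3 fell in HG, 5 after si-FGF9 and 5 in HG + OE-FGF9 against NG (0, 1 and 2 with the GC content correction). KIF11, the kinesin that pushes the spindle poles apart, was at 21.9, 18.6 and 18.5 TPM in NG, 6.65, 3.79 and 10.4 in HG, 4.74, 4.60 and 2.89 after si-FGF9, with HG + OE-FGF9 at 2.87, 3.17 and 6.39. All other libraries were below all NG libraries, and KIF11 fell in HG (-1.46 ± 0.32, limma adjusted p = 0.0037) and after si-FGF9 (-2.04 ± 0.32, adjusted p = 0.00014). These values became -0.36 and -0.40 with the GC content correction.

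TPX2, which activates Aurora A on the spindle, was at 106, 100 and 94.1 TPM in NG, 53.4, 46.8 and 84.6 in HG, 30.2, 32.98 and 37.6 after si-FGF9, while the HG + OE-FGF9 libraries held 37.2, 37.4 and 79.0. The si-FGF9 group had the lowest mean, at -1.55 ± 0.28 (adjusted p = 0.00036) and -0.69 with the correction. HMMR, a spindle pole protein, fell after si-FGF9 to 0.0597 times the NG mean, from 17.6, 19.6 and 16.8 TPM in NG to 1.37, 1.29 and 0.56 (-3.22 ± 0.44, adjusted p = 4.9e-05), through 5.45, 2.42 and 7.18 in HG and with 0.65, 1.04 and 4.94 in HG + OE-FGF9. NUSAP1, which bundles spindle microtubules, fell in all 3 groups against NG (-1.44, -2.02 and -1.97), and DLGAP5, which stabilises microtubules near chromosomes, fell after si-FGF9 (-2.12) and in HG + OE-FGF9 (-2.66), where its libraries ran from 2.85 to 14.4 TPM against 33.4 to 43.8 in NG. With the correction NUSAP1 was at -0.70 after si-FGF9 and did not pass, and DLGAP5 passed in HG + OE-FGF9 (-1.24) but not after si-FGF9 (-0.49). KIF2C, which trims microtubule ends, was the spindle gene that passed in no comparison over all 12 libraries, at -0.55, -0.90 and -0.79 in the 3 comparisons with NG.

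All 6 cytokinesis genes fell after si-FGF9, 4 fell in HG and 5 in HG + OE-FGF9 against NG, where the GC content correction left 3, 0 and 4. Anillin (ANLN), which organises the contractile ring, was at 113, 95.8 and 86.3 TPM in NG, 32.4, 12.3 and 53.1 in HG, 20.4, 17.9 and 6.98 after si-FGF9, with HG + OE-FGF9 at 8.86, 10.2 and 32.9. It fell in HG (-1.78 ± 0.56, limma adjusted p = 0.02) and after si-FGF9 (-2.74 ± 0.56, adjusted p = 0.00084), and no library outside NG reached the NG range. With the correction its si-FGF9 value was -1.17 and missed the p threshold. ECT2, the exchange factor that turns on RhoA at the cell equator, went from 88.2, 67.8 and 63.4 TPM in NG to 18.6, 9.57 and 26.9 in HG, 7.94, 8.18 and 5.42 after si-FGF9, while the HG + OE-FGF9 libraries held 8.64, 7.49 and 18.9. Its fall after si-FGF9 (-3.18 ± 0.37, adjusted p = 2e-05) took its mean TPM to 0.0982 times that of NG, and it also fell in HG (-2.03 ± 0.37, adjusted p = 0.0016). The si-FGF9 value passed with the correction, at -1.54. KIF23, the motor of centralspindlin, and KIF14, which brings citron kinase to the midbody, fell in all 3 groups against NG, KIF23 at -1.51, -2.75 and -2.36 and KIF14 at -1.80, -2.53 and -2.38. KIF14 was under 1 TPM in every si-FGF9 library (0.39, 0.43 and 0.32). With the correction the si-FGF9 value of KIF23 passed, at -1.39, and that of KIF14 was -0.89, under the fold threshold.

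KIF20A, a kinesin of the central spindle, separated si-FGF9 from HG. It was at 42.5, 45.1 and 39.5 TPM in NG, 23.3, 17.6 and 41.5 in HG, 4.36, 7.25 and 7.22 after si-FGF9, with HG + OE-FGF9 at 5.69, 5.60 and 29.6. HG replicate 3 lay within the NG range, and the si-FGF9 libraries were far below every HG library. KIF20A fell after si-FGF9 against NG (-2.60 ± 0.50, adjusted p = 0.00059) and against HG (-1.91 ± 0.50, adjusted p = 0.016), and both values passed with the GC content correction, at -1.86 and -1.56. PRC1, the microtubule bundler to which KIF20A and other central spindle motors bind, was at 59.4, 56.2 and 53.9 TPM in NG, 46.5, 37.4 and 60.4 in HG, 25.2, 27.8 and 26.7 after si-FGF9, while the HG + OE-FGF9 libraries held 31.1, 29.9 and 55.5. It fell after si-FGF9 (-1.06 ± 0.23, adjusted p = 0.0012), where the value was -0.30 with the GC content correction and 0.03 when length was corrected too.

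The 2 chromosome genes went separate ways. MKI67, whose product Ki-67 coats mitotic chromosomes and is the routine histological marker of dividing cells, was at 15.6, 17.1 and 18.8 TPM in NG, 7.83, 5.14 and 10.97 in HG, 3.17, 3.18 and 3.58 after si-FGF9, with HG + OE-FGF9 at 2.61, 2.64 and 7.34. Its NG, HG and si-FGF9 libraries did not overlap, with HG in the middle. MKI67 fell in HG (-1.07 ± 0.32, limma adjusted p = 0.016) and after si-FGF9 (-2.07 ± 0.32, adjusted p = 0.00011), and was lower after si-FGF9 than in HG (-1.01 ± 0.32, adjusted p = 0.032). The si-FGF9 value against NG was -1.32 with the GC content correction, which passed, and -0.98 when length was corrected too, which did not.

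TOP2A, the topoisomerase that untangles sister chromatids, was at 225, 200 and 193 TPM in NG, 112, 101 and 251 in HG, 152, 163 and 168 after si-FGF9, while the HG + OE-FGF9 libraries held 75.7, 75.7 and 165. HG replicate 3 was its highest library of all. TOP2A fell in HG + OE-FGF9 (-1.06 ± 0.34, limma adjusted p = 0.016) and did not pass after si-FGF9 (-0.35 ± 0.34, adjusted p = 0.38). Both directions turned with the GC content correction, to 0.33 in HG + OE-FGF9, and to 1.26 after si-FGF9, which passed as higher.

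Between si-FGF9 and HG, which differ in glucose as well as in the siRNA, 9 of the 40 genes were lower in si-FGF9 and none higher, where 9.67% of all genes were lower and 1.4% higher. They were AURKA, BUB1B, CCNB1, CENPF, ECT2, FOXM1, HMMR, KIF20A and MKI67. At an adjusted p under 0.05 with no minimum fold and the GC content correction 7 were lower and 5 higher, a threshold for which no share of all genes is given. By the fold and p rule with the correction 3 were lower, CENPF (-2.13), FOXM1 (-1.32) and KIF20A (-1.56), and none higher. Of all genes 2.52% were lower and 3.34% higher by that rule. The same 3 genes were called when length was corrected too and under the median of ratios scaling.

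**Figure D4:**
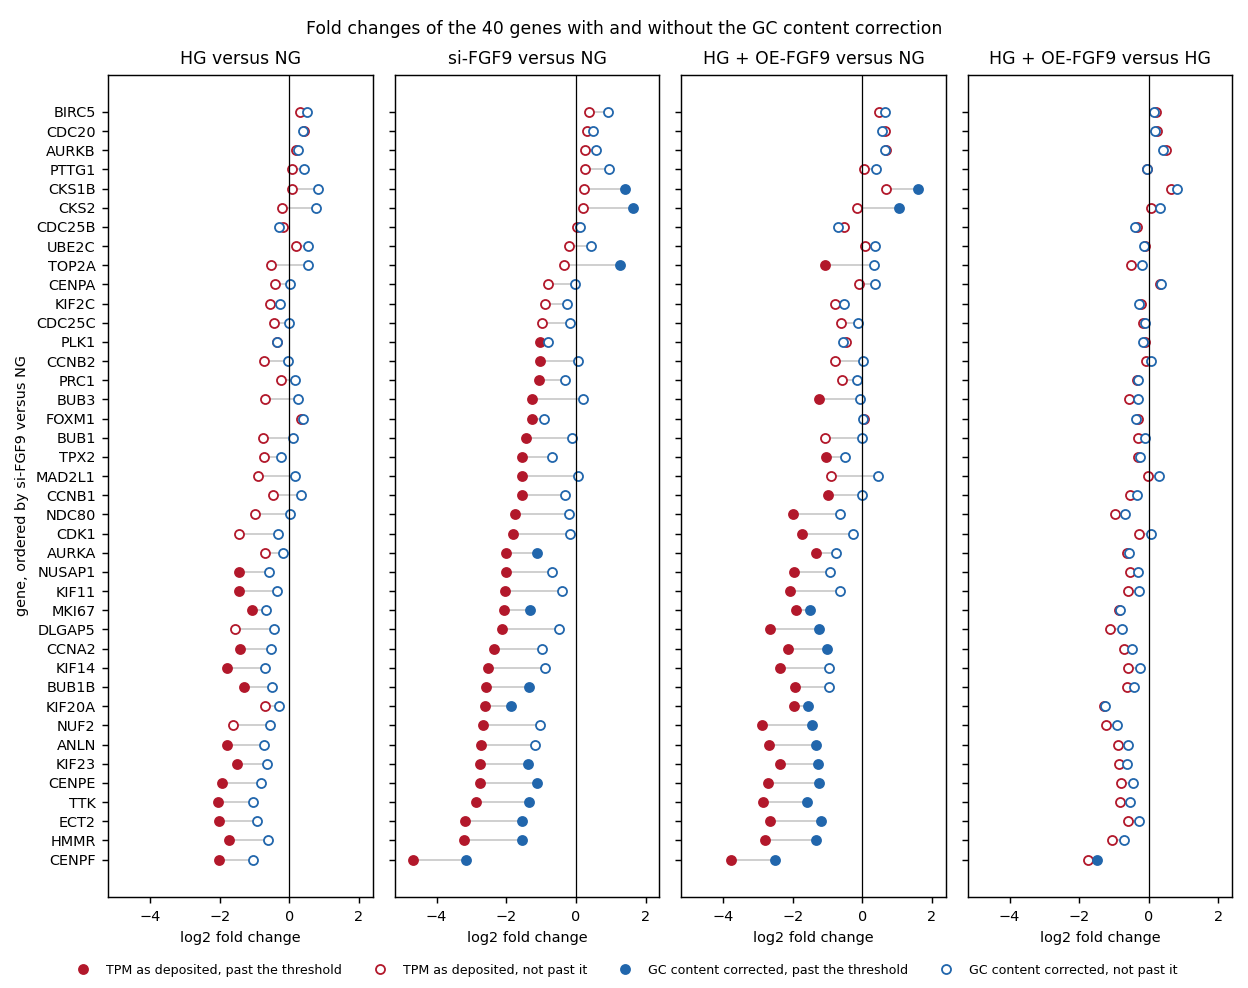
Log2 fold changes of the 40 genes in 4 comparisons from TPM as deposited (red) and after the GC content correction (blue), with filled points past the threshold of 1 in fold and 0.01 in p. Blue points lie to the right of red ones for most genes below 0, CENPF stays at the far left, and the genes at the top (BIRC5 to UBE2C) are near or above 0.

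The comparison of HG + OE-FGF9 with HG was made within high glucose. No vector was described for HG, so added FGF9 and the viral vector that carried it cannot be told apart here. By limma 0 of the 40 passed in either direction, where 2.67% of all genes were lower and 2.94% higher. At an unadjusted p under 0.05 without a minimum fold 9 of the 40 passed, and 3 of these (CENPF, HMMR and KIF20A) also passed the fold threshold, all lower. At an adjusted p under 0.05 without a minimum fold the 1 gene was CKS1B, higher. Shares of all genes are not given for these looser thresholds. The median log2 fold change of the 40 was -0.53, against -0.13 over all tested genes. With the GC content correction CENPF alone passed, lower at -1.48, where 2.18% of all genes were lower and 3.03% higher.

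This count rested on single libraries. Without HG + OE-FGF9 replicate 3, 12 of the 40 were lower than in HG and none higher, where 7% of all genes were lower: AURKA, BUB1B, CCNA2, CCNB1, CENPF, DLGAP5, HMMR, KIF20A, KIF23, MKI67, NDC80 and NUF2. Adding the GC content correction left 7 lower, where 4.21% of all genes were. HG replicate 2 was the lowest HG library for 33 of the 40 genes (82.5%), against 53.2% of all tested genes. With HG replicate 2 left out, 7 of the 40 were lower, where 6.35% of all genes were. Against NG, 27 were lower in HG + OE-FGF9 without its replicate 3, where 36.7% of all genes were.

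HG + OE-FGF9 replicates 1 and 2 were very similar, with a median absolute difference of 0.061 (log2) over the 40 genes, whereas replicate 3 differed from them by 1.055 and 1.107. As a median over the 40 genes, replicates 1 to 3 lay at -1.50, -1.52 and -0.39 from the NG mean. Over all tested genes these medians were -0.62, -0.61 and -0.33, so replicate 3 lay near the shift of all genes. With the GC content correction the medians of the 40 were -0.77, -0.81 and 0.04. In replicate 3 CCNB1 (111 TPM) and PRC1 (55.5 TPM) were within the NG range, and PLK1 (32.6 TPM) and FOXM1 (50.7 TPM) were above every NG library. AURKB (192 TPM) and CDC20 (157 TPM) were also above every NG library, as they were in replicates 1 and 2. CENPF, HMMR, CENPE, KIF14 and TTK remained well below NG in replicate 3. FGF9 itself, at 3.82 TPM, did not set replicate 3 apart. After the GC content correction replicate 3 was still the highest of its group for 40 of 40 genes.

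The HG count also moved with single libraries. As medians over the 40 genes, HG replicates 1 to 3 lay at -0.83, -1.20 and -0.42 from the NG mean. Over all tested genes these medians were -0.33, -0.54 and -0.34. With the GC content correction the medians of the 40 were -0.26, -0.40 and 0.12. Without HG replicate 3 18 genes were lower than in NG, where 28.5% of all genes were, and without HG replicate 2 the number was 6, where 14.4% were. The 6 were BUB1B, CENPE, ECT2, HMMR, KIF11 and KIF14. The rank correlation of GC content with the deviation of the library was 0.57 in HG replicate 2 and -0.42 in replicate 3, and their part in the difference between these libraries was not tested.

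The fold changes of the 40 genes moved with base composition. Their GC content ran from 35.3% (CENPE) to 59.3% (CDC25B), with a median of 42.9% against 48.3% over all tested genes. Across the 40 genes the rank correlation of GC content with the log2 fold change was 0.81 in HG, 0.67 after si-FGF9 and 0.76 in HG + OE-FGF9 against NG, and over all 14191 tested genes with a value it was 0.64, 0.57 and 0.58. The 40 genes share the same libraries and genes are not independent, so these values are descriptions. Correlations with transcript length were -0.53, -0.53 and -0.52 over the 40. Among the genes of low GC content, TOP2A (39.1%) and CKS2 (41.4%) were not called lower after si-FGF9, while the equally poor CENPF (40.8%) and TTK (40.8%) were at the other end. PLK1 (57.1%) and FOXM1 (55.6%) fell after si-FGF9 with a GC content above the median of all genes. With the GC content correction both missed the fold threshold there (-0.80 and -0.92). TOP2A (1.26) and CKS2 (1.65) were then called higher, while CENPF (-3.17) and TTK (-1.35) stayed lower.

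**Figure D5:**
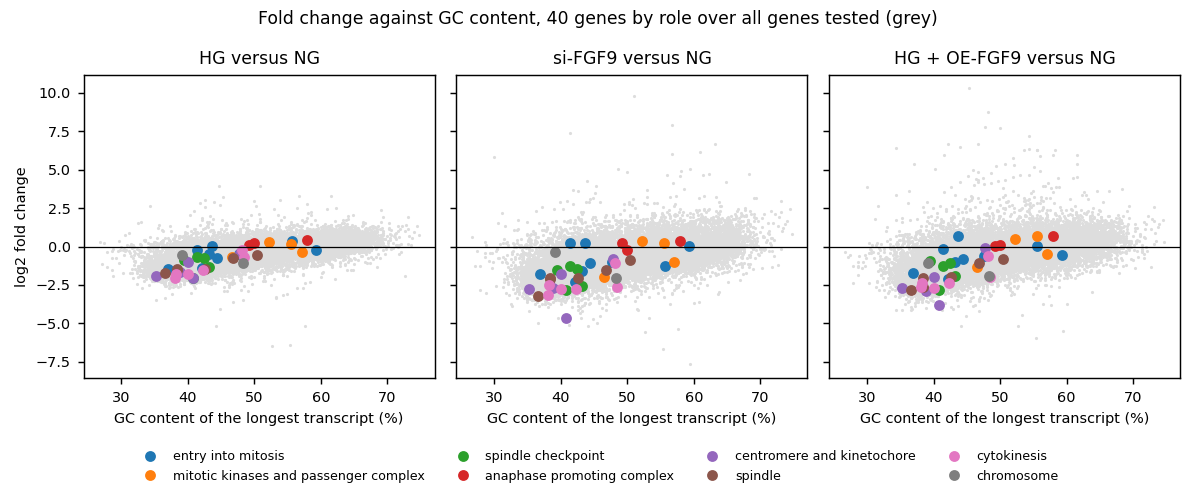
Log2 fold change against GC content of the longest transcript for the 40 genes, coloured by role, over all tested genes (grey), in 3 comparisons with NG. Points rise from left to right in each panel (rank correlation of the 40 genes 0.81, 0.67 and 0.76), and CENPF is the lowest of the 40 in the panels for si-FGF9 (-4.68) and HG + OE-FGF9 (-3.78).

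The rest of the division machinery was examined through lists of its other genes, whose counts stand against the same shares of all tested genes: 22.7% lower in HG, 42.2% after si-FGF9 and 32.7% in HG + OE-FGF9 as deposited, and 3.06%, 12% and 11.8% with the GC content correction. Cohesin and condensin, the rings that hold and compact chromatids, had 10 of 19 genes lower in HG, 16 after si-FGF9 and 14 in HG + OE-FGF9 against NG, where 1 (NCAPH2) was higher. Their medians were -1.22, -1.92 and -1.75, the lowest of these lists. SMC4, the core ATPase of condensin, was at -2.39 in HG, -3.24 after si-FGF9 and -3.66 in HG + OE-FGF9, and passed in all 3 with the GC content correction too (-1.27, -1.59 and -2.20). SMC3 of cohesin was at -3.05 after si-FGF9 and -1.42 with the correction, and with the correction 1, 7 and 4 of the 19 genes were lower.

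Other kinetochore genes were lower for 12 of 31 in HG (38.7%), 18 after si-FGF9 (58.1%) and 14 in HG + OE-FGF9, with 1 higher in each of the last 2. CENPC, which links centromeric chromatin to the kinetochore, was at -2.07, -2.75 and -2.89, and CENPK at -1.82, -2.76 and -2.45. SPC24, a partner of NDC80 and NUF2, was higher after si-FGF9 at 1.63 (limma adjusted p = 4.8e-05), and CENPM was higher in HG + OE-FGF9 at 1.42 (adjusted p = 5e-05). The GC content correction left 1 lower and 1 higher in HG, 4 lower and 3 higher after si-FGF9, while in HG + OE-FGF9 it left 3 lower and 2 higher. Other kinesins and spindle genes were lower for 7 of 20 in HG, 14 after si-FGF9 and 13 in HG + OE-FGF9, among them the microtubule polymerase CKAP5 (-3.06 after si-FGF9 and -1.93 with the correction) and the kinesins KIF18A (-1.98 in HG and -2.83 in HG + OE-FGF9) and KIF20B (-1.76, -2.60 and -2.53). With the correction 0, 6 and 6 of the 20 were lower.

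Subunits and regulators of the anaphase promoting complex went in both directions. Of 18, 7 were lower in HG, 11 after si-FGF9 and 7 in HG + OE-FGF9, and 2 were higher in each of the last 2. FBXO5, an inhibitor of the complex, was at -1.80, -2.63 and -2.58, and the scaffold subunit CDC23 at -1.32 in HG and -2.39 after si-FGF9. The catalytic RING subunit ANAPC11 was higher, at 1.18 after si-FGF9 and 1.23 in HG + OE-FGF9, as were ANAPC15 after si-FGF9 (1.06) and the chain-extending enzyme UBE2S in HG + OE-FGF9 (1.29). After the correction 0, 2 and 1 were lower and 1, 4 and 4 higher. Under the median of ratios scaling the balance also shifted, to 4 lower and 5 higher after si-FGF9 and 3 lower and 4 higher in HG + OE-FGF9.

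Some regulators that read these promoters were lower as well. Of 16 genes for DREAM, MYB-MuvB and the CCAAT-binding factor NF-Y, 7 were lower in HG, 11 after si-FGF9 and 8 in HG + OE-FGF9, and none was called higher, while the correction left 1, 4 and 2 lower. MYBL2, the MYB factor of MYB-MuvB, was at 0.19, -0.28 and 0.55 and passed in none. RBL2, which encodes the pocket protein p130 of DREAM in resting cells, was at -2.38, -3.84 and -3.14, and passed with the GC content correction in all 3 (-1.59, -2.58 and -2.16). MYBL1, a MYB factor, was at -1.93 in HG and -3.08 in HG + OE-FGF9, and E2F5 at -2.97 after si-FGF9. In the comparison of si-FGF9 with HG 6 of the 16 were lower, where 9.67% of all tested genes were, with RBBP4, a MuvB core subunit, at -1.67.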

How the data were processed

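The authors deposited TPM values for 62703 Ensembl gene identifiers in 12 HK2 libraries, which sum to 1000000 in each library and are given to 2 decimals. The submitters' processing notes name Bowtie 0.12.2 and the genome build mm8, a mouse build, although the identifiers are human. Their role, the quantifier and the annotation are not given in the sources used here, nor is read depth. The sources of the study also differ on mannitol in the NG medium and on the kind of viral vector.

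Genes with TPM of at least 1 in at least 3 libraries (14639) were tested on log2(TPM + 1) in limma 3.58.1 (R 4.3.3, moderated test with variance trend, group as the only term), with Benjamini-Hochberg adjustment over all of them. Values in 3 libraries per group are given for lead genes of each role and for the 3 members that changed most in either direction in a comparison. From each other list the 2 genes that changed most in either direction are named. Values of NUSAP1, DLGAP5, NDC80, KIF14 and KIF23 were added after they were seen, so that each role is complete. Some genes of the lists are not reported here by name. The 40 genes and all lists were chosen with earlier results of these data known.

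GC content and length came from the longest GENCODE 29 transcript (GRCh38), with values for 96.9% of tested genes. For the GC content correction, the deviations of a library from the gene means were fitted with a natural spline (5 degrees of freedom) and the fitted curve was removed. Promoter windows came from RefSeq and were searched in Python 3.11.15. Alternatives were other scalings, filters, pseudocounts, thresholds, a replicate block, and each library left out. The fits were checked on simulated data. The single-library files held the same values as the joint table and were not used further.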

Additional observations from a re-analysis of the deposited data

How the results depend on the processing

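Counts of the 40 genes changed in either direction moved with the normalization, the filter, the threshold, the GC content correction and single libraries, and the cause was not tested. In HG against NG the 13 became 5 with the median of ratios scaling, 8 with quantile normalization, 6 with no filter, 21 at an adjusted p under 0.05 with no minimum fold, and 0 with the GC content correction, with GC content and length, and with GC content and the replicate block. It was 8 with the GC content correction at an adjusted p under 0.05 and no minimum fold, 2 with it and without HG replicate 3, 1 with it and without HG + OE-FGF9 replicate 3, and 20 without both of these libraries. After si-FGF9 the 28 became 13 with the GC content correction, 13 with the replicate block added, 10 with length added, 13 when HG replicate 3 was left out and 15 when HG + OE-FGF9 replicate 3 was. In HG + OE-FGF9 against NG the 23 became 14 with the GC content correction. Together with it the count was 14 with the block, 11 with length and 14 without HG replicate 3. From TPM as deposited it was 34 at an adjusted p under 0.05 with no minimum fold. In HG + OE-FGF9 against HG the 0 became 1 with the GC content correction. Together with it the count was 2 with the block, 2 at an adjusted p with no minimum fold and 7 without HG + OE-FGF9 replicate 3. From TPM as deposited it was 3 at an unadjusted p under 0.05, 1 at an adjusted p with no minimum fold, and 9 without both libraries. Between si-FGF9 and HG the 9 became 3 with either scaling and with the GC content correction alone, with length, with the block or without HG + OE-FGF9 replicate 3, 4 with it and without HG replicate 3, and 5 with no filter.

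With each library left out in turn the counts ran from 6 to 18 in HG against NG, 25 to 28 after si-FGF9, 0 to 12 in HG + OE-FGF9 against HG, 18 to 27 against NG, and 5 to 12 between si-FGF9 and HG. HG fell to 6 without NG replicate 1 or HG replicate 2 and to 7 without HG replicate 1, to 8 without NG replicate 2 or 3, and si-FGF9 against HG to 5 without HG replicate 1, HG replicate 3 or si-FGF9 replicate 1 and to 6 without si-FGF9 replicate 2 or 3.

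For libraries with the same replicate number, the correlation of deviations from group means ran from -0.439 to 0.248. Deviations from means of 3 libraries cannot settle whether the numbers pair cultures or batches, and no pairing was assumed. With the replicate block the counts were 12 in HG, 28 after si-FGF9, 23 in HG + OE-FGF9 against NG, 0 against HG and 9 between si-FGF9 and HG.

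Some single genes turned direction with the GC content correction. After si-FGF9 the log2 fold change became 0.07 for CCNB2 (also with length or block), 0.21 for BUB3 (0.39 with length), 0.05 for MAD2L1 (0.21 with length), 1.26 for TOP2A (1.43 with length), 0.44 for UBE2C, and with length 0.05 for BUB1 and 0.03 for PRC1. In HG + OE-FGF9 against NG it became 1.05 for CKS2, 0.46 for MAD2L1, 0.33 for TOP2A (0.54 with length, 0.11 without HG + OE-FGF9 replicate 3), and with length 0.21 for BUB3. In HG CKS2 became 0.75. Of 6185 values of single genes under the alternatives, 5365 kept their direction and side of the threshold, 405 lost and 170 gained it, 40 turned from or to a called value and 205 changed sign with neither value called. The alternatives that join the GC content correction with another threshold or with a library left out, and the one without both libraries, were chosen after seeing the data.

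Depth is not known, so counting error could not be given, and genes near 1 TPM (CENPE, KIF14, HMMR) are the least precise. The base composition trend set all NG libraries apart from all si-FGF9 and HG + OE-FGF9 libraries, so group and composition cannot be told apart there, while it varied within HG (-0.42 to 0.57). The correction would also remove a true change that follows GC content.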

Other observations

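Genes of the G2 checkpoint moved in separate directions. Of 14 genes, most of them brakes on entry into mitosis but also the CDK-activating phosphatase CDC25A and PPM1D, which switches the checkpoint off, 3 were lower and 1 higher in HG, 6 lower and 1 higher after si-FGF9, and 2 lower and 1 higher in HG + OE-FGF9, each against NG. The shares lower in HG (21.4%) and after si-FGF9 (42.9%) were close to those of all tested genes (22.7% and 42.2%), and with the GC content correction no gene of the list was lower in the 3 comparisons. The 2 kinases that phosphorylate and restrain CDK1 went opposite ways: WEE1 was at -1.32 in HG, -1.70 after si-FGF9 and -1.63 in HG + OE-FGF9, whereas PKMYT1 was at 1.31, 1.80 and 1.98. With the GC content correction PKMYT1 stayed higher after si-FGF9 (1.41) and in HG + OE-FGF9 (1.55), and WEE1 was at -0.21, -0.05 and -0.19. CDKN1A, the p21 inhibitor of cyclin-dependent kinases, was the 1 gene of the list to change between HG + OE-FGF9 and HG, higher by 1.51 (limma adjusted p = 0.0029) and by 1.45 with the correction.

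Genes of replication licensing and the G1/S transition, the step before G2, had medians of -0.06 in HG, -0.86 after si-FGF9 and -0.25 in HG + OE-FGF9 against NG, and under the median of ratios scaling these turned to 0.45, 0.14 and 0.37. Of 22 genes 3, 11 and 4 were lower and 2, 1 and 2 higher, where 22.7%, 42.2% and 32.7% of all genes were lower, and with the correction 0, 1 and 2 were lower and 2, 2 and 3 higher. E2F1, the factor that activates S phase genes, was higher in all 3 (1.08, 1.15 and 1.73), as were the helicase subunit MCM5 in HG (1.03) and GINS2 in HG + OE-FGF9 (1.16). CDK2 was lower after si-FGF9, at -2.70 against NG and -1.60 against HG, and passed with the GC content correction in both (-2.13 and -1.28). CDK6 was lower in all 3 groups against NG, at -1.57, -2.06 and -2.41. Of 14 genes for the phosphatases of mitotic exit and their regulators, 7, 9 and 8 were lower and none higher, led by PPP1CB at -1.51, -2.35 and -2.15, and with the correction 0, 1 and 0 were lower. These lists are described by counts and values without a test of the list.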
